A study of Rattus norvegicus with 18 samples.

Results

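Interferon gamma is the cytokine by which T cells and natural killer (NK) cells switch macrophages and other cells into an antimicrobial, antigen-presenting state. It binds a receptor made of the chains Ifngr1 and Ifngr2, which carry the kinases Jak1 and Jak2. Signalling through them ends at a short palindrome in target promoters called the gamma-activated site. Among the genes switched on are Irf1, a transcription factor that carries the response further, and Socs1, which blocks the kinases and ends it. Il12rb2 is the chain of the interleukin 12 receptor that lets T and NK cells respond to interleukin 12 and make interferon gamma, and Irf8 is a transcription factor of myeloid and B cells that works with Irf1.

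These 9 genes were picked by symbol, with earlier results of the same arrays known, out of 13601 named genes tested. They are represented by 10 probes, 2 of them for Irf1, out of 26424 probes tested. Because the picking drew on log2 ratios of Cy5 over Cy3 in the 4 groups of arrays, the differences of these 9 genes between procainamide and control arrays are given as a description and not as a test. Tests are given for other genes of the pathway, whose lists were also drawn up with earlier results known. They are given too for a comparison of the strains' controls, on which the 9 genes were not chosen. That comparison uses Cy5 of the same arrays, so it is not fully independent of the choice.

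The arrays were 2-colour Agilent rat arrays hybridised with RNA from blood of male rats. The groups were Brown Norway (BN) rats given procainamide at 40 mg/kg (4 arrays), BN rats given sterile water (4 arrays), Sprague Dawley (SD) rats given procainamide at 40 mg/kg (5 arrays) and SD rats given sterile water (5 arrays). Procainamide treats irregular heartbeat and is a classic cause of drug-induced lupus. BN is an inbred strain, SD is an outbred stock, and the series asks how rats of either kind respond to the drug. RNA of each sample was labelled with Cy5 and hybridised beside Cy3-labelled RNA that by the labels was control replicate 1 of the same strain, so the log2 ratio says how far a sample lies above that reference. By the labels the arrays of BN control 1 and SD control 1 therefore carried 1 RNA in both colours, yet their log2 ratios were no nearer 0 for several of the genes below. No dye was swapped, so a dye effect of a probe would enter every array alike. The age of the rats and the length of treatment are not given in the sources used here, nor is it stated that each array came from its own animal, so the errors describe the spread between these arrays.

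The BN procainamide arrays filled slide 3 alone. Slide 2 carried the BN control arrays with SD procainamide 4 and 5, and slide 1 all SD control arrays with SD procainamide 1 to 3. Slide 2 was scanned on another day than the others, so in BN the slide and scan day changed with the drug. Median Cy5 spot signals ranged from 1694 to 3187 (BN procainamide), 997 to 1986 (BN control), 1446 to 2628 (SD procainamide) and 2152 to 2876 (SD control). Of 10 measured markers of blood cells (among them Ptprc, S100a8, Ppbp and Hbb), every one was well above background on at least 1 array of each group. All 10 probes of the pathway genes were well above background in Cy5 on all 18 arrays, and no Cy5 spot was saturated. In whole blood, more cells of a type and more RNA per cell cannot be told apart.

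Upstream sequence is shown for Ifng and for 3 genes of the chain whose promoters hold the letters of a gamma-activated site. RefSeq's table for the GRCr8 build gave the 250 bases before each start, and capitals mark matches to TTCNNNGAA, the core of that site, or to GAAANNGAA, a core bound by interferon regulatory factors, on either strand. The windows are chr7:55788930-55789179 on the plus strand for Ifng, chr10:38417685-38417934 (plus) for Irf1, chr19:65699034-65699283 (plus) for Irf8 and chr10:5389324-5389573 (plus) for Socs1.
Ifng: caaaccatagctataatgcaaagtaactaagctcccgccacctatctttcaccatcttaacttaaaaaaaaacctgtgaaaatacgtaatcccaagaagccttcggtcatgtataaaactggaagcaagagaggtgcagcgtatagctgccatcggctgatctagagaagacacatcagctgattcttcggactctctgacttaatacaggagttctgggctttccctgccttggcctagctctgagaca
Irf1: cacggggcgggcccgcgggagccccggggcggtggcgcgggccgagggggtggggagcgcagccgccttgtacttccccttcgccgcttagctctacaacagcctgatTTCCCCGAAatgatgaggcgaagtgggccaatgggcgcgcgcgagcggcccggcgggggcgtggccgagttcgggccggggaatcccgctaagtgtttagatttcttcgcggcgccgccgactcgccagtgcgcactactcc
Irf8: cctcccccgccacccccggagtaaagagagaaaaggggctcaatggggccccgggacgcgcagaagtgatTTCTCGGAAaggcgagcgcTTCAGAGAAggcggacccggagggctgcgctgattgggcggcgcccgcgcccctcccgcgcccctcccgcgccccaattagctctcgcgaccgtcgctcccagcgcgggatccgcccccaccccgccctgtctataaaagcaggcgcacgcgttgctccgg
Socs1: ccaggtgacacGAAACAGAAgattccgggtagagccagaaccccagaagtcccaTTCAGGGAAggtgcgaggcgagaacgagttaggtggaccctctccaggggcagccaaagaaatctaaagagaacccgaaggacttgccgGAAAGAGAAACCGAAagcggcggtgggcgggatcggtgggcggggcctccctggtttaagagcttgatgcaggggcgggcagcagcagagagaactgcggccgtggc
The Irf1 window holds 1 match to TTCNNNGAA, with its first base at -142 from the start. Irf8 holds 2 such matches and Socs1 1, and the first of 2 starts listed for Il12rb2 holds 1 as well. Socs1 has 3 matches to GAAANNGAA, of which a pair overlaps and forms 1 longer run of capitals, and the second start of Il12rb2 has 1. The windows of Ifng, Ifngr1, Ifngr2 and Jak2 hold neither motif, and Jak1 is named only. Of 33469 windows of the same length, 7.67% hold TTCNNNGAA and 8.12% hold GAAANNGAA. A match is a description of the letters and not of binding.

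Ifng (chr7:55789180-55793216 in GRCr8) was higher on every procainamide array than on any control array in both strains. Its log2 ratios were 1.95, 3.76, 4.19 and 2.36 on the BN procainamide arrays, against -0.08, -0.38, -0.34 and -0.65 on the BN control arrays. The treated arrays split into a pair near 4 and a pair near 2, so their spread (SD 1.08) was several times that of the controls (SD 0.23). The difference was 3.43 on the log2 scale (SE 0.44), a 10.8-fold higher ratio.
In SD rats the log2 ratios of Ifng were 1.72, 3.15, 1.40, 1.76 and 1.71 on the procainamide arrays, against -0.33, -0.82, 0.20, -0.54 and 0.40 on the control arrays. Array SD procainamide 2 stood above the other 4, which lay close together. The 2 arrays of slide 2 (1.76 and 1.71) fell within the range of the 3 of slide 1. The difference was 2.17 (SE 0.39), a 4.49-fold higher ratio, and 2.31 within slide 1 alone. A fit with scan day as a term, which rests on the SD procainamide arrays, gave a BN difference of Ifng of 3.08. One with array brightness (log2 of the median Cy5 signal) as a term gave 2.55 in BN and 2.49 in SD. The BN difference exceeded the SD difference by 1.26 (SE 0.59) in the fit without such terms, by 0.77 with scan day and by 0.06 with brightness.

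**Figure D1:**
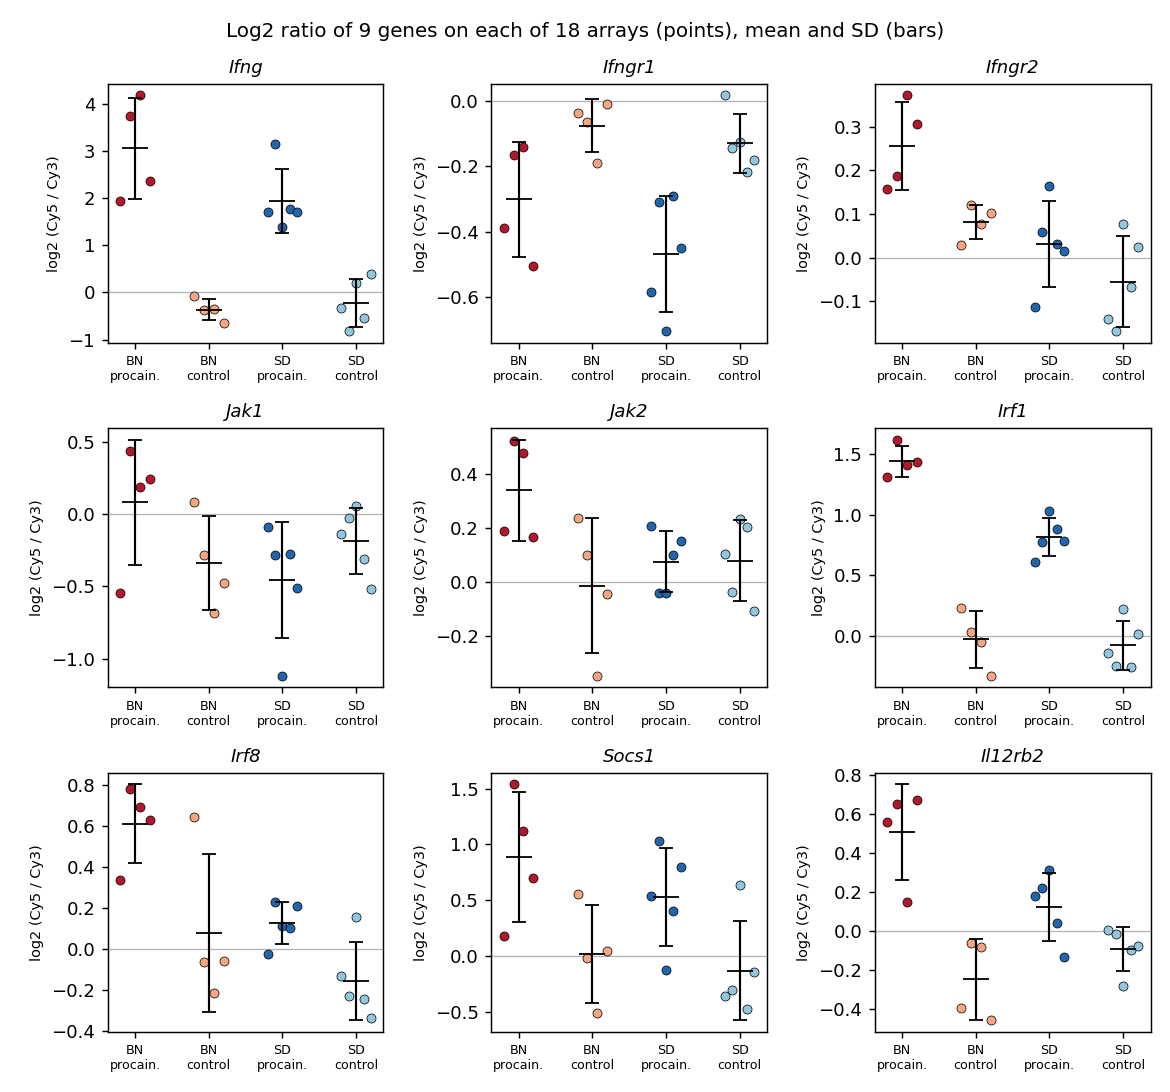
Log2 ratio of Cy5 over Cy3 (vertical axis, a scale of its own in each panel) of the 9 genes on each array (points, in order of replicate) in the BN procainamide, BN control, SD procainamide and SD control groups, with mean and SD (bars). For Ifng and Irf1 all procainamide arrays lie above all control arrays of their strain. For Irf1 the probe of higher intensity is drawn.

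The Cy5 level alone, on a log2 scale after normalization between arrays, ordered the 4 groups for Ifng as BN procainamide (11.75 ± 1.02), SD procainamide (11.09 ± 0.71), SD control (9.07 ± 0.46) and BN control (8.05 ± 0.33; mean ± SD, n = 4 arrays in BN and 5 in SD). The procainamide groups of the strains overlapped. The other neighbours in that order did not, and the control levels of BN lay below those of SD on every array. The Cy3 level of Ifng, the reference, was 8.68 ± 0.07 on the BN procainamide arrays and 8.41 ± 0.13 on the BN control arrays, and 9.14 ± 0.05 on the SD procainamide arrays and 9.29 ± 0.06 on the SD control arrays.

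Among 13601 named genes, those whose log2 ratio over the 18 arrays was most like that of Ifng were Acod1 (Pearson r = 0.954), Tap1 (0.949), Gbp2 (0.947), Irgm (0.946) and Cxcl10 (0.940). Acod1 makes itaconate in activated macrophages, Tap1 moves peptides to MHC class I, Gbp2 and Irgm are interferon-inducible GTPases and Cxcl10 draws in T cells. Of the pathway genes, Irf1 followed Ifng most closely (r = 0.920), then Socs1 (0.829), Irf8 (0.731) and Il12rb2 (0.694), while Ifngr1 ran the other way (-0.422). These correlations describe 18 arrays that fall into treated and control groups and share their references.

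Il12rb2 (chr4:97756089-97844937) stands upstream of Ifng. Its log2 ratios were 0.56, 0.65, 0.15 and 0.67 on the BN procainamide arrays, against -0.40, -0.06, -0.08 and -0.46 on the BN control arrays. These groups did not overlap, and they differed by 0.76 (SE 0.13, 1.69-fold higher). In SD the values were 0.18, 0.22, 0.31, 0.04 and -0.14 on procainamide arrays, against 0.00, -0.01, -0.28, -0.10 and -0.08 on control arrays. There the groups overlapped through the procainamide 5 array, and the difference was 0.22 (SE 0.12). The difference of Il12rb2 was 0.47 in BN and 0.33 in SD once scan day was a term. The genes whose pattern was most like that of Il12rb2 were Il2rg (r = 0.952), the common chain of receptors for interleukin 2 and its relatives, Nfatc2 (0.947), a calcium-driven T cell transcription factor, Ciita (0.943), the MHC class II transactivator, Faslg (0.941), the death ligand of cytotoxic cells, and Klrc2 (0.931), an NK cell receptor.

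The receptor chains differed little. Ifngr1 (chr1:16152811-16171439), the chain that binds the cytokine, was lower on the procainamide arrays. Its log2 ratios ran from -0.51 to -0.14 on the BN procainamide arrays and from -0.19 to -0.01 on the BN control arrays, which overlap, with a difference of -0.23 (SE 0.10), or -0.06 with scan day as a term and -0.02 in Cy5 level alone. In SD they ran from -0.71 to -0.29 on procainamide arrays and from -0.22 to 0.02 on control arrays, with no overlap and a difference of -0.34 (SE 0.09). Ifngr2 (chr11:44265703-44283975), the chain needed for signalling, had 0.16, 0.19, 0.37 and 0.31 on the BN procainamide arrays, against 0.03, 0.12, 0.08 and 0.10 on the BN control arrays. These groups were apart by a narrow margin and differed by 0.17 (SE 0.08). In SD the Ifngr2 groups overlapped and differed by 0.09 (SE 0.07). In Cy5 level alone the BN difference of Ifngr2 was 0.59 and the SD difference -0.06, since its Cy3 level was also 0.41 higher on the BN procainamide arrays than on the BN control arrays.

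The kinases overlapped between treated and control arrays in both strains. Jak1 (chr5:120895606-121004207) had -0.55, 0.44, 0.19 and 0.25 on the BN procainamide arrays, against 0.09, -0.28, -0.68 and -0.47 on the BN control arrays, and differed by 0.42 (SE 0.23). Array BN procainamide 1 was the lowest treated array for Jak1 and BN control 1 the highest control array. In SD the difference of Jak1 was -0.27 (SE 0.21), and with brightness as a term it was -0.15 in BN and -0.06 in SD. Jak2 (chr1:236408905-236468769) had 0.19, 0.52, 0.48 and 0.17 on the BN procainamide arrays, against 0.24, 0.10, -0.35 and -0.04 on the BN control arrays. Its difference was 0.35 (SE 0.12) in BN and -0.004 (SE 0.11) in SD.

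Irf1 (chr10:38417935-38424946), whose promoter is shown above, stood apart on treated arrays with a narrow spread, its SD on the BN procainamide arrays being 0.13 against 1.08 for Ifng. The probe of higher intensity gave log2 ratios of 1.31, 1.61, 1.41 and 1.43 on the BN procainamide arrays, against 0.23, 0.03, -0.05 and -0.32 on the BN control arrays. It gave 0.61, 0.78, 1.03, 0.88 and 0.78 on the SD procainamide arrays, against -0.14, -0.24, 0.23, -0.25 and 0.02 on the SD control arrays. In both strains the groups were clear of each other. The BN procainamide ratios also lay above all SD procainamide ratios, but each strain had its own reference. In Cy5 level the treated arrays of the strains overlapped. The differences were 1.47 (SE 0.13, 2.77-fold) in BN and 0.89 (SE 0.11, 1.85-fold) in SD, and 1.49 and 0.88 with scan day as a term. The other Irf1 probe had a wider spread. On it the values were 0.14, 1.87, 1.58 and 1.02 on the BN procainamide arrays, against 0.68, -0.03, -0.42 and -0.21 on the BN control arrays, which overlap through the procainamide 1 and control 1 arrays. Its differences were 1.15 (SE 0.31) in BN and 0.71 (SE 0.28) in SD.

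For the brighter Irf1 probe a large part of the ratio lay in the reference channel. The Cy3 level of the brighter probe was 13.57 ± 0.18 on the BN procainamide arrays and 14.34 ± 0.11 on the BN control arrays (SD, n = 4 each), although by the labels both carried the same reference RNA. In SD it was 14.03 ± 0.11 on procainamide arrays and 14.36 ± 0.09 on control arrays (SD, n = 5 each). A Cy3 shift of that size or larger between the BN groups was seen in 1.34% of named genes. In Cy5 level alone the difference of the brighter probe was 0.70 in BN and 0.56 in SD, smaller than in the ratio by more than 1.5 times. The Cy5 level of that probe was 15.01 ± 0.06 on BN procainamide, 14.32 ± 0.15 on BN control, 14.84 ± 0.14 on SD procainamide and 14.28 ± 0.13 on SD control arrays (SD, n = 4 in BN and 5 in SD), where the treated groups overlapped each other and so did the controls. The second probe showed no such fall in BN, with Cy3 at 11.61 ± 0.05 on BN procainamide and 11.41 ± 0.05 on BN control arrays. Its Cy5 level was 12.77 ± 0.72 on BN procainamide and 11.41 ± 0.51 on BN control arrays. In SD that level was 12.40 ± 0.17 on procainamide and 11.83 ± 0.40 on control arrays.

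**Figure D2:**
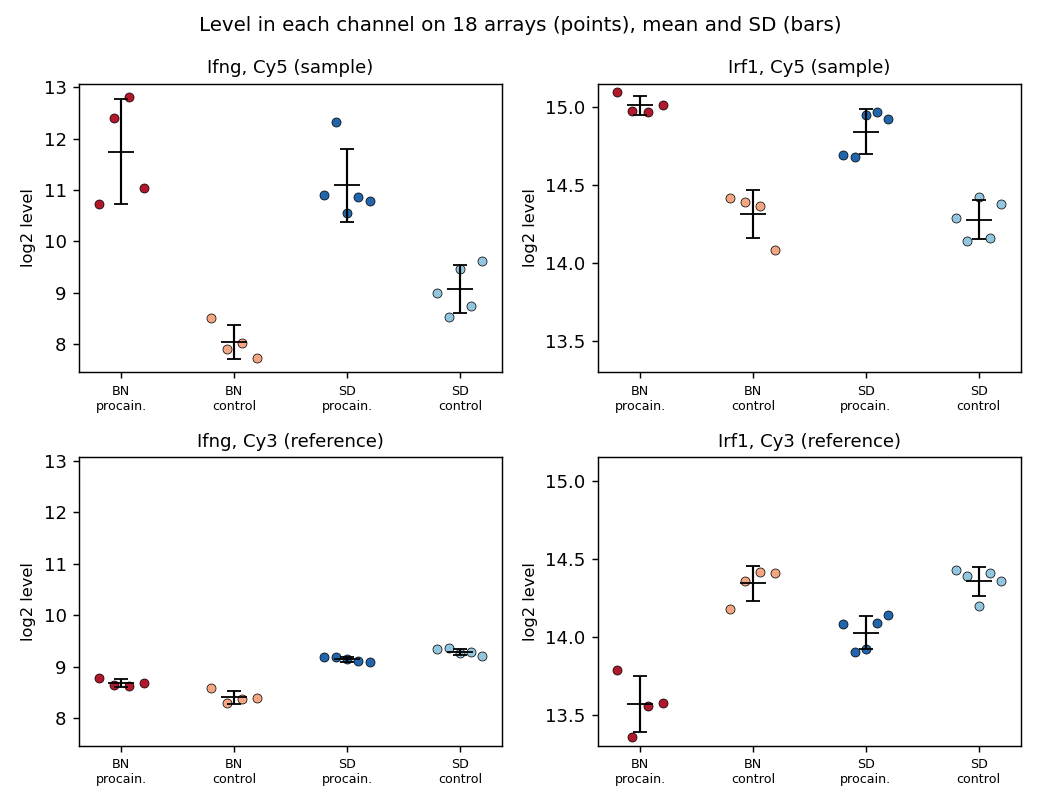
Log2 level of Ifng and of the brighter Irf1 probe (vertical axis, the same within a gene) in Cy5, the sample, and Cy3, the reference, on each array (points) with group mean and SD (bars). The Cy3 level of Irf1 lies near 13.57 on BN procainamide arrays and 14.34 on BN control arrays, while that of Ifng moves less.

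Irf8 (chr19:65699284-65721066) had log2 ratios of 0.34, 0.78, 0.69 and 0.63 on the BN procainamide arrays, against 0.65, -0.07, -0.22 and -0.06 on the BN control arrays. Array BN control 1, by the labels an RNA against itself, lay among the treated arrays and the other 3 controls below them all. The BN difference was 0.54 (SE 0.16), or 0.73 without BN control 1, which was the highest value with any 1 array left out. In SD it was 0.28 (SE 0.14), with overlap. Socs1 (chr10:5389574-5391265) had 0.19, 1.54, 1.12 and 0.70 on the BN procainamide arrays, against 0.56, -0.01, -0.51 and 0.05 on the BN control arrays. Here too BN control 1 was the highest control and BN procainamide 1 the lowest treated array, and the groups overlapped. The difference of Socs1 was 0.87 (SE 0.30) in BN and 0.66 (SE 0.27) in SD. A brightness term changed these to 0.29 in BN and 0.87 in SD, so that the order of the strains turned round.

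**Figure D3:**
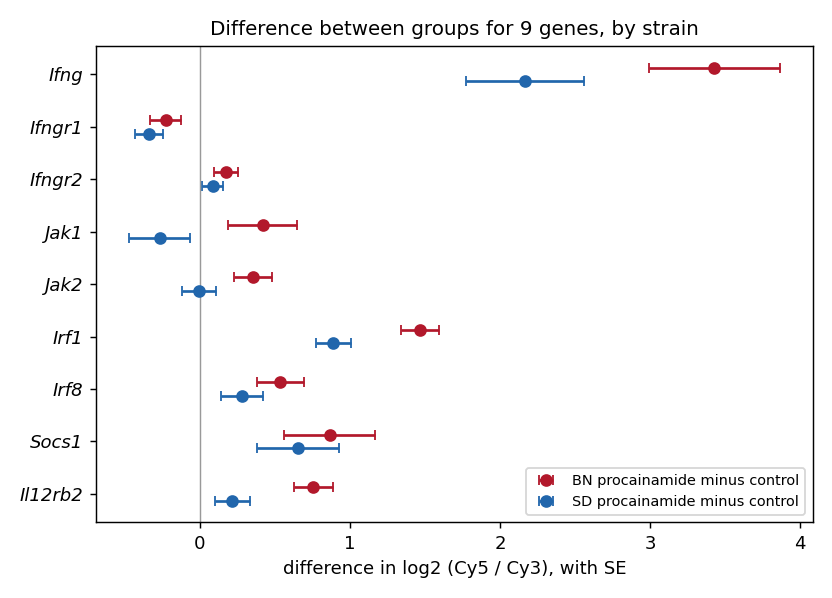
Difference in log2 ratio between procainamide and control arrays (horizontal axis, points with SE) for the 9 genes in BN and in SD rats. Ifng (3.43 in BN and 2.17 in SD) and Irf1 (1.47 and 0.89) lie farthest to the right, and Ifngr1 lies left of 0 in both strains.

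Over the 9 genes, 8 had a positive difference in BN and 6 in SD, with a median of 0.54 in BN (over all named genes -0.02) and 0.22 in SD (over all named genes -0.01). In the limma fit over all probes, 4 of the 9 were past an adjusted p of 0.05 in BN, all higher (Ifng, Irf1, Irf8 and Il12rb2), where 9% of named genes were called higher and 22.8% in either direction. In SD 2 of the 9 were past it, both higher (Ifng and Irf1), where 1.43% were called higher and 3.18% in either direction. In the difference between the responses 1 gene was past it (Irf1, higher in BN), where 3.15% were called higher, 7.54% lower and 10.7% in either direction. That Irf1 value came from the brighter probe (0.58, SE 0.17). The other Irf1 probe gave 0.44 (SE 0.42), and the Cy5 level of the brighter probe alone 0.13 (SE 0.13). The groups did not overlap for 4 of the 9 in BN (Ifng, Ifngr2, Irf1 and Il12rb2; 20% of named genes) and 3 of the 9 in SD (Ifng, Ifngr1 and Irf1; 8.92%). Adding the scan day term left 1 of the 9 past the threshold in BN and 2 in SD. Since these values chose the genes, nothing is read from the counts. As a description, the BN log2 difference lay above the SD one for all 9 genes, by 0.09 (Ifngr2) to 1.26 (Ifng). The median gap was 0.36 (over all named genes 0.005). With brightness as a term the BN difference lay below the SD difference for Jak1 (-0.10) and Socs1 (-0.58).

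BN controls were set against SD controls in Cy5 level, because each strain had its own reference. The genes were not chosen on this contrast, but the log2 ratios used in the choice contain Cy5 of the same control arrays. Of the 9 genes, 2 were lower in BN controls than in SD controls by limma: Ifngr2 (log2 14.04 ± 0.01 in BN and 14.31 ± 0.07 in SD; difference -0.27, SE 0.08, adjusted p = 0.0136) and Jak2 (13.47 ± 0.22 in BN and 13.78 ± 0.13 in SD; difference -0.31, SE 0.11, adjusted p = 0.0283). Over all named genes 36.9% were called in this contrast, 16.3% higher and 20.6% lower in BN, so a share of 2 in 9 is near the background. Ifng was 2.04-fold lower in BN controls, on 4 of 4 BN arrays below 5 of 5 SD arrays, with a limma adjusted p of 0.0547 that misses the threshold (difference -1.03, SE 0.41). The nearest arrays, BN control 1 (8.50) and SD control 2 (8.54), were almost level. Groups were apart for 3 of the 9 genes (Ifng, Ifngr1 and Ifngr2), against 34.6% of named genes. The BN and SD controls lay on different slides scanned on different days. With scan day as a term limma called 0 of the 9, with 0 at an unadjusted p under 0.05, and the Ifngr2 difference was 0.014 and that of Ifng -0.60.
The Jak2 call was lost without BN control 3 (adjusted p = 0.118), BN control 4 (0.0627), SD control 3 (0.0638) or SD control 4 (0.0676). It was also lost with Feature Extraction's processed signals (0.184). Ifng passed limma's test without BN control 1 (adjusted p = 0.0455) or SD control 2 (0.0486), and without BN procainamide 1 (0.0369), BN procainamide 3 (0.0361) or SD procainamide 2 (0.0297), which change only the estimate of spread. It also passed with quantile normalization (0.0432) and with the processed signals (0.0253). Without BN procainamide 4 (0.0512), BN procainamide 2 (0.0524) or SD procainamide 3 (0.0544) Ifng lay slightly nearer limma's threshold and still missed it. The remaining omissions moved Ifng further from the threshold. Among them were BN control 4 (0.127), SD control 5 (0.115), SD control 3 (0.108), BN control 2 (0.107) and BN control 3 (0.0956).

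The other genes of the pathway were taken from 3 textbook lists: inducers of Ifng, signalling proteins and targets. These lists were chosen with earlier results of the same arrays known, so their tests are not independent of that knowledge. Targets of interferon gamma rose in BN blood in 20 of 24 measured genes of 28 listed, where 9% of named genes rose. None measured fell past the threshold (limma, adjusted p under 0.05), where 13.8% of named genes fell. The median log2 difference of the targets was 0.95, where that of all named genes was -0.02. The chemokine Cxcl9, which recruits T cells, rose most (3.14, SE 0.32, adjusted p = 6.89e-06). Its log2 ratios were 2.57, 3.47, 2.83 and 3.02 on the BN procainamide arrays, against -0.02, -0.14, -0.89 and 0.40 on the BN control arrays. The GTPases Gbp2 (1.87, SE 0.19, adjusted p = 5.84e-06) and Gbp5 (1.54, SE 0.17, adjusted p = 2.12e-05), which act against intracellular microbes, and the adhesion molecule Icam1 (0.90, SE 0.10, adjusted p = 1.59e-05) rose as well. Fitted with scan day as a term, 7 targets were past the threshold in BN, Cxcl9 (3.28), Gbp2 (1.36), Gbp5 (1.31), Icam1 (0.67) and Irgm (1.49) among them. With brightness as a term 13 were. The difference in the Cy3 reference level of Cxcl9 between BN procainamide and BN control arrays was -1.33. In Cy5 level alone 17 targets passed in BN, where 10185 of 26424 probes were called. The differences there were 1.80 for Cxcl9, 1.11 for Gbp2, 1.07 for Gbp5 and 0.54 for Icam1. Each was still past limma's threshold and smaller than in the ratio.

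In SD blood 13 of the 24 measured targets rose and none fell past the threshold, with a median of 0.49 (all named genes -0.01). Of all named genes 1.43% rose and 1.76% fell in SD. Cxcl9 rose by 2.13 (SE 0.28, adjusted p = 0.00111), with values of 2.14, 2.53, 1.37, 1.55 and 2.77 on procainamide arrays, against -0.56, -0.33, 0.51, 0.03 and 0.06 on control arrays. Irgm, a GTPase of the defence against vacuolar microbes, rose by 1.15 (SE 0.15, adjusted p = 0.00111), Gbp2 by 1.06 (SE 0.17, adjusted p = 0.00322) and the immunoproteasome subunit Psmb9 by 0.92 (SE 0.15, adjusted p = 0.00366). The difference in the Cy3 level of Cxcl9 between SD procainamide and SD control arrays was -0.87. In Cy5 level alone 10 targets passed in SD, where 953 of 26424 probes were called. The differences there were 1.26 for Cxcl9, 0.97 for Irgm, 0.54 for Gbp2 and 0.41 for Psmb9. All were past the threshold and smaller than in the ratio. Within slide 1 alone 10 targets passed, and with scan day as a term 8 did. Left out one at a time, SD control 1 (7 targets), SD control 2 (6), SD control 4 (8), SD procainamide 2 (8), SD procainamide 3 (7) and SD procainamide 5 (8) moved the count by more than 1.5 times. In the test of the difference between the responses, 3 targets were higher in BN (Ciita, Gbp2 and Icam1), where 3.15% of named genes were called higher. That count was 6 without BN procainamide 1 and 5 without SD procainamide 3. Adding the scan day term, limma called 0 targets, with 2 at an unadjusted p under 0.05, and 0 probes on the whole array, where 1527 had an unadjusted p under 0.05.

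**Figure D4:**
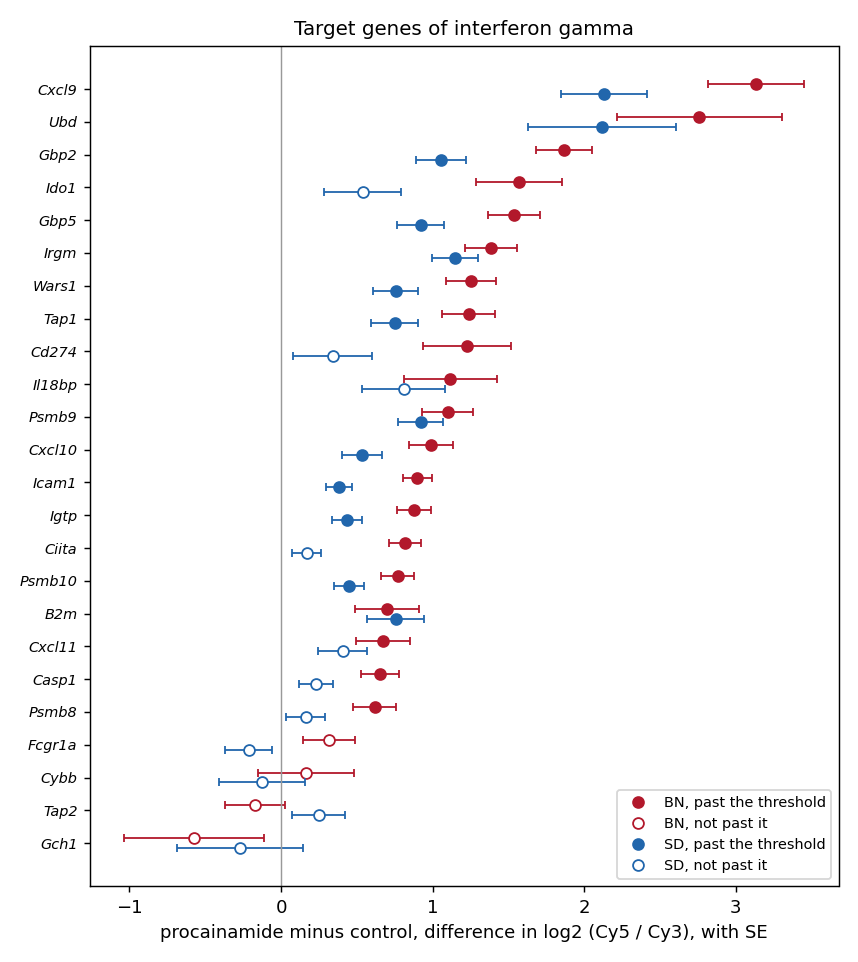
Difference in log2 ratio between procainamide and control arrays (horizontal axis, points with SE) for the 24 measured target genes in BN and SD rats. Filled points passed the threshold of limma's adjusted p of 0.05, which were 20 in BN and 13 in SD, all to the right of 0.

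Of 13 measured signalling genes of 14 listed, 4 rose and 1 fell in BN (median 0.17), where 9% of named genes rose and 13.8% fell. Irf2, a repressor of Irf1 targets (0.53, adjusted p = 0.00276), Stat3 (0.53, adjusted p = 0.00786) and Stat2, a factor of type I interferon signalling (0.46, adjusted p = 0.00874), were among those that rose, by limma. The phosphatase Ptpn11 was the gene that fell (-0.38, adjusted p = 0.0219). In Cy5 level alone Irf2 differed by 0.95, Stat2 by 0.29 and Stat3 by -0.12, the last not past the threshold. With scan day or brightness as a term 1 of the 13 was past the threshold.

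In SD 3 signalling genes rose by limma (median 0.19), where 1.43% of named genes rose, among them Irf2 (0.38, adjusted p = 0.0488) and Ptpn11 (0.38, adjusted p = 0.0477). The count was 1 with scan day as a term, within slide 1, and without any 1 of SD control 1 to 5, SD procainamide 2, 3 or 5, BN control 3 or 4 or BN procainamide 3. Crebbp, a coactivator with 0.24 in SD (adjusted p = 0.104) and -0.24 in BN (adjusted p = 0.0563), and Ptpn11 differed between the responses, by -0.48 (adjusted p = 0.0135) and -0.76 (adjusted p = 0.00430).

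Only 9 of 14 listed inducers of Ifng were measured, and the counts describe those. Of all named genes 9% rose and 13.8% fell in BN, and 1.43% rose and 1.76% fell in SD. In BN Stat4, which carries the interleukin 12 signal, rose by 0.59 (SE 0.10, adjusted p = 6.20e-04), and Il12rb1, the partner chain of Il12rb2, by 0.61 (SE 0.12, adjusted p = 0.00194). Runx3, a factor of cytotoxic lymphocytes, fell by 0.32 (SE 0.09, adjusted p = 0.0131). Il18r1, a receptor chain for interleukin 18, had 0.34 and missed limma's threshold (adjusted p = 0.0798). In SD Il12rb1 rose by 0.47 (SE 0.11, adjusted p = 0.0264), while Stat4 (0.27), Runx3 (0.21) and Hlx (-0.11) did not pass limma's test. The median over the measured inducers was 0.08 in BN and 0.07 in SD. Runx3 in Cy5 level alone differed by -0.89 in BN and 0.45 in SD, both past the threshold. In the scan day fit limma called 0 inducers in either strain, with 3 in each at an unadjusted p under 0.05. In SD, leaving out SD control 2 or 3 or SD procainamide 2, 3 or 5 also gave 0, with 3 at an unadjusted p under 0.05.

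Markers of NK and T cells, the main makers of interferon gamma, were examined beside it. Of 12 measured NK cell markers, 3 rose in BN (Klrc1, Nkg7 and Faslg; median of the list 0.23) and 2 in SD (Klrc1 and Nkg7; median -0.04), where 9% of named genes rose in BN and 1.43% in SD. Of 15 T cell markers, 2 rose in BN (Trat1 and Cd27; median 0.30), and 0 in SD by limma, where 4 had an unadjusted p under 0.05 (median 0.13). The summed Cy5 level of the T cell list (log2) ran from 18.20 to 18.32 on BN procainamide arrays and 17.85 to 18.05 on BN control arrays, without overlap, and from 18.05 to 18.20 and 17.96 to 18.16 on SD procainamide and SD control arrays. That of the NK cell list ran from 16.87 to 17.27 on BN procainamide arrays and 16.56 to 16.88 on BN control arrays, and from 16.68 to 16.84 and 16.57 to 16.90 on SD procainamide and SD control arrays. Of 10 monocyte markers 2 rose in BN (Lyz2 and Fcgr3a; median 0.10) and 0 in SD by limma, where 2 had an unadjusted p under 0.05 (median 0.01), and the list ran from 17.84 to 18.34 on BN procainamide and 17.65 to 18.01 on BN control arrays. Of the 10 other blood markers Ptprc rose and Ppbp fell in BN (median -0.33), and 0 changed in SD by limma, where 4 had an unadjusted p under 0.05 (median -0.38).
Markers of vessel, connective, epithelial and gland tissue are called non-blood markers here, although blood cells also express some listed ones, such as Pecam1. They fell in 6 of 14 in BN (median -0.45) and in 3 of 14 in SD (median -0.17), where 13.8% and 1.76% of named genes fell. Their summed level ran from 17.38 to 17.65 on BN procainamide arrays and 17.68 to 17.88 on BN control arrays, and from 17.56 to 17.82 and 17.85 to 18.02 on SD procainamide and SD control arrays, without overlap in either strain. All 14 were well above background on at least 1 array of each group. With scan day as a term these marker counts were 1 NK cell marker in BN, and in SD 0 by limma, where 4 had an unadjusted p under 0.05. The same fit called 0 T cell markers in BN (1 unadjusted), 0 monocyte markers (2 unadjusted), 0 other blood markers (0 unadjusted) and 2 non-blood markers, and in SD 0 non-blood markers (6 unadjusted). Brightness as a term gave 0 T cell, monocyte and other blood markers in BN by limma (5, 2 and 2 unadjusted), 2 NK cell markers in BN and 1 in SD, and 4 non-blood markers in BN and 2 in SD. Within slide 1, 0 non-blood markers passed in SD (6 unadjusted). By Cy5 level alone 6 of 15 T cell markers passed in BN, where 10185 of 26424 probes were called. The part of these cell lists in the differences of the pathway genes was not tested.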

How the data were processed

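The authors deposited the output of Agilent Feature Extraction 10.7.1.1 for array design 028279, per the file headers. It holds median spot and local background intensities in Cy3 and Cy5 without normalization, background-subtracted processed intensities, and log10 ratios of processed Cy5 over Cy3, per the file headers. A deposited table of all samples was not used here.

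Intensities were corrected with normexp (offset 50) and ratios normalized by loess within arrays in R 4.3.3 with limma 3.58.1. Spots of a probe were averaged without those marked as outliers. Cy5 and Cy3 levels were also normalized between arrays (Aquantile). Probes were named through RefSeq or Ensembl accessions and RefSeq's GRCr8 table (18355 of 30367), and a probe was tested where the scanner software placed its Cy5 well above background on 4 of 18 arrays or more. A gene was its probe of highest mean intensity. The limma fit had a mean for each of 4 groups (14 residual degrees of freedom), with Benjamini-Hochberg adjustment over all 26424 tested probes. The fit was checked on simulated ratios. The number of arrays limits the precision. Some genes counted in the lists are not reported here by name. Replicate numbers did not pair treated and control arrays (correlations of deviations from -0.523 to 0.129 over 9 pairs).

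The 9 genes, the other lists and the tests were chosen with earlier results of these data known. Named beside the 9 are, for each pathway list, the 4 genes of smallest p in each strain, the 5 genes most like Ifng, and examples from the cell marker lists. The genes like Il12rb2, and those named where a count is small, were chosen after their values were seen. Alternatives were the Feature Extraction log ratio, no background correction, other filters on dim probes, terms for scan day and brightness, the replicate block, slide 1 alone and each array left out; Cy5 level alone was added after seeing the data.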

Additional observations from a re-analysis of the deposited data

Results flagged for a closer look

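Among 36 sets of arrays, 1 gene in 1 group each, 1 held an array far from its fellows: the log2 ratio of Ifng on SD procainamide 2 was 3.15, against 1.40 to 1.76 on the other 4 SD procainamide arrays. Chance gives such a gap in about 1 of 20 sets. Without that array the SD difference of Ifng was 1.87, the lowest value with any 1 array left out.

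The test of the difference between the BN and SD responses passed for 5 of the pathway genes named by the rule, and it ran over 4 BN and 5 SD arrays in each group. Over all named genes 10.7% were called, 7.54% lower and 3.15% higher. Because the rule took genes of smallest p in the same responses, its genes are not a neutral sample for this test. Runx3 (-0.53), Ptpn11 (-0.76) and Crebbp (-0.48) were lower in BN relative to SD on the log2 scale, and Gbp2 (0.81) and Icam1 (0.52) higher. With scan day as a term none of the 5 passed by limma, where the differences were -0.54, -0.30, -0.34, 0.11 and 0.19. With Cy5 level alone Runx3 (-1.34), Ptpn11 (-0.58), Crebbp (-0.68) and Gbp2 (0.57) passed. That fit called 9109 of 26424 probes in this contrast.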

How the results depend on the processing

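Each comparison was repeated under the alternatives; counts are genes past limma's adjusted p of 0.05, in the BN response, the SD response and their difference. With scan day as a term the counts were 0 inducers, 1 signalling gene and 7 targets in BN, 0, 1 and 8 in SD, and 0, 0 and 0 in the difference (1, 0 and 2 at an unadjusted p under 0.05). With brightness they were 1, 1 and 13 in BN, 0 inducers (3 unadjusted) and 1 signalling gene in SD, and 0, 0 and 0 in the difference (3, 1 and 3 unadjusted). With the replicate block, which pairs nothing by the labels, 3 signalling genes passed in BN, 0 inducers (3 unadjusted), 1 signalling gene and 5 targets in SD, with 0 NK cell markers (4 unadjusted) and 0 non-blood markers (6 unadjusted) there, 1 monocyte and 1 other blood marker in BN, and 1 signalling gene and 1 target in the difference. Within slide 1 there were 0 inducers (3 unadjusted) and 1 signalling gene in SD. Without background correction 1 signalling gene passed in SD. The Feature Extraction log ratio gave 0 inducers (3 unadjusted) and 1 signalling gene in the difference, and probes well above background on all arrays gave 1 signalling gene. In Cy5 level alone, chosen after seeing the data, 2 inducers passed in SD and 3 inducers, 4 signalling genes and 7 targets in the difference. That fit called 953 of 26424 probes in SD and 9109 in the difference. With 1 array left out the counts for inducers, signalling genes and targets were 3 to 4, 4 to 6 and 18 to 20 in BN, 0 to 1, 1 to 4 and 6 to 13 in SD, and 1, 2 to 3 and 2 to 6 in the difference. Between the control strains the count of the 9 genes was 0 with scan day, 0 with brightness (0 unadjusted in both), 4 with quantile normalization and 1 to 3 with 1 array left out, and the called difference of Ifngr2 turned to 0.014 with scan day. Of the differences of the 9 genes in each strain, between 94.4% and 100% kept their direction with 1 array left out. Cy5 level alone and the Feature Extraction ratio each turned 1 of 18, brightness turned 2. In BN, slide 3 cannot be told apart from the drug. Scan day can be fitted only through the SD procainamide arrays. The cause of these changes was not tested.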
